A study of Mus musculus with 12 samples.

Results

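The Ier genes examined were Ier5l, Ier5, Ier2 and Ier3, 4 of the 41457 genes in the count tables, and each was found by its name in all 12 libraries. Ier5l was chosen from the comparison of the genotypes in unstimulated regulatory T cells (Treg), where it was among the genes past the threshold, and the other members were added by name. That comparison is therefore given for the family as a description with no test. Bulk poly(A) RNA-Seq was made from RFP+CD4+ T cells sorted from mouse spleens and kept overnight in 5 U/mL IL-2. Stimulated cells also received 1 µg/mL anti-CD3 and 2 µg/mL anti-CD28, antibodies against the T cell receptor complex and its costimulatory receptor. CD18Foxp3 mice carry CD18fl/fl, in which exon 3 of Itgb2 (CD18, the shared chain of the β2-integrins) is flanked by loxP sites, with Foxp3Cre, which is active in Foxp3-expressing cells. The CD18wt littermates carry CD18wt/wt with the same Foxp3Cre, and both genotypes carry the ROSA26 RFP reporter that marked the sorted cells. There were 3 libraries in each of the 4 groups of genotype and stimulation. The ages of these mice were not given in the sources used here, and nothing states which unstimulated and stimulated cultures came from 1 mouse, so p-values measure the spread between libraries.

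Immediate early genes are transcribed within minutes of a stimulus without new protein synthesis, and most of their transcripts are short-lived. Ier2, Ier5 and Ier5l encode nuclear proteins with a related N-terminal region, and proteins of this group bind the B55 subunits of the phosphatase PP2A. IER5 is known to bring PP2A to HSF1, the master factor of the heat shock response, and IER2 is induced by serum and growth factors through SRF. Ier3 (IEX-1) shares the name but not the sequence. Its protein acts on ERK signalling and cell survival, and the gene is a target of NF-kappaB.

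All 4 genes are compact. In GRCm38 with the GENCODE M21 annotation, Ier5l (ENSMUSG00000089762) is on the minus strand at chr2:30471537-30474219, Ier5 (ENSMUSG00000056708) on the minus strand at chr1:155096361-155099636, Ier2 (ENSMUSG00000053560) on the minus strand at chr8:84661331-84662852, and Ier3 (ENSMUSG00000003541) on the plus strand at chr17:35821684-35822923. Ier5l, Ier5 and Ier2 have 1 exon and no intron, whereas Ier3 has 2 exons around an intron of 109 bases. The coding sequence holds 406 codons in Ier5l, 308 in Ier5, 221 in Ier2 and 160 in Ier3. The 3′ untranslated region made up 46.9% of the Ier5l transcript and 65.5% of the Ier5 transcript. No other gene in the tables overlapped any member, so no annotated gene on the other strand overlaps the reads counted for a member. Unannotated transcripts were not examined.

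**Figure D1:**
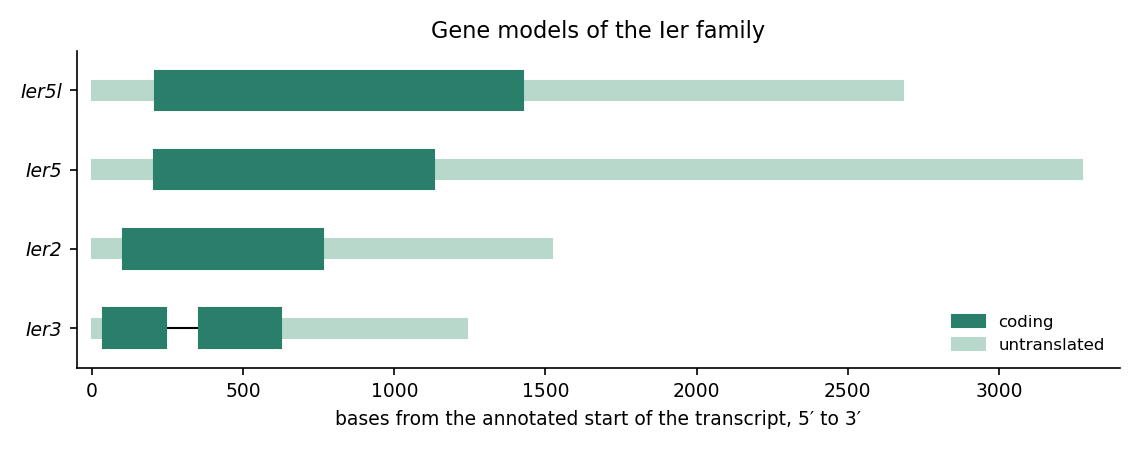
Gene models of the Ier family, drawn to scale with the distance in bases from the start of the annotated transcript on the x axis. Dark boxes are coding, light boxes untranslated, and the line in Ier3 is its intron of 109 bases. Ier5l has the longest coding part with 406 codons.

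The first 150 coding bases, taken from the GENCODE M21 transcripts, show which members are related. Capitals mark the bases that Ier5l, Ier5 and Ier2 share at the same position, with no gap needed, and Ier3 is printed in lower case for comparison.
Ier5l: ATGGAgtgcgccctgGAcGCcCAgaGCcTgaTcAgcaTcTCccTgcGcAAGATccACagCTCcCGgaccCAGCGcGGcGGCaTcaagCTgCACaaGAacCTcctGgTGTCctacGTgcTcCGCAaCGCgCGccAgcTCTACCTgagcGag
Ier5: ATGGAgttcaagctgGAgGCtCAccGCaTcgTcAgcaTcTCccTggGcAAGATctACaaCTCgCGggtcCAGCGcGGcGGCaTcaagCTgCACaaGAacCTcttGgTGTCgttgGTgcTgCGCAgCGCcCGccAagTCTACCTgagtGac
Ier2: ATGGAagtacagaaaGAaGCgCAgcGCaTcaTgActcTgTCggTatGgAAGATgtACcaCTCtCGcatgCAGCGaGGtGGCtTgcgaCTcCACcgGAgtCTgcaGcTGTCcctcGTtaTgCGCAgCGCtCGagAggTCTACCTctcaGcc
Ier3: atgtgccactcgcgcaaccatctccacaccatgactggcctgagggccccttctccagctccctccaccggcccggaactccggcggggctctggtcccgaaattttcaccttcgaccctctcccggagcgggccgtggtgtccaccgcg
Ier5l and Ier5 were identical at 122 of these 150 positions (81.3%), Ier5 and Ier2 at 93 and Ier5l and Ier2 at 86 (57.3%), with 79 positions shared by all 3. Ier3 matched Ier5l at 46 of 150 positions. Over the whole transcripts the longest run of bases shared by Ier5l and Ier5 was 34 bases, shorter than the reads of 59 bases, and no other pair shared more than 13. Every exon read counted for a member was also counted as uniquely placed.

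The 12 libraries held between 10665174 and 19005482 exon reads. Itgb2 followed the labels, with 387 to 465 TPM (a share of all transcripts that corrects for transcript length) in unstimulated CD18wt and 229 to 257 in unstimulated CD18Foxp3 Treg, and 329 to 331 against 131 to 202 after stimulation. These are sums over the whole gene, of which only exon 3 is removed. All 7 Treg markers looked up, Foxp3 among them, had reads in every group, and their summed level was 1624 to 4459 TPM. Ighm and Ighd, which mark B cells, were at 0 in all 12 libraries. Other B cell markers had reads, with means of 26.4 TPM for Cd79b and 7.93 TPM for Cd22 in unstimulated CD18wt Treg. The zeros therefore do not show that the sorted cells were free of B cell RNA. The CD18wt unstimulated replicate 3, which was also the library of lowest depth, stood apart. Its Fos level was 30.3 TPM, against 1844 and 1545 TPM in the other CD18wt unstimulated libraries and 466 to 1038 TPM in unstimulated CD18Foxp3 Treg. Its Junb level was 311 TPM against at least 2416 TPM in the other 5 unstimulated libraries. Results that rest on this library are given with and without it.

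At the level of the transcript the members fell into 2 abundant and 2 scarce genes. In unstimulated CD18wt Treg, mean levels were 274 ± 130 TPM for Ier2, 151 ± 32.1 for Ier5, 15.8 ± 1.58 for Ier5l and 1.01 ± 1.43 for Ier3 (SD, n = 3). Ier2 lay above 97.6% and Ier5 above 95.5% of the 17198 genes with reads in that group, while Ier5l lay above 66.0% and Ier3 above 34.4%. Ier2 exceeded Ier5 in each of the 12 libraries, although the libraries of the 2 genes overlapped in the unstimulated CD18wt and the stimulated CD18Foxp3 group. After stimulation Ier3 and Ier5l changed places. Ier3 averaged 13.5 ± 8.45 TPM and Ier5l 3.08 ± 1.78 TPM in stimulated CD18wt Treg, and 9.90 ± 3.39 and 1.39 ± 0.697 TPM in stimulated CD18Foxp3 Treg, with no overlap of the libraries in either genotype.

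**Figure D2:**
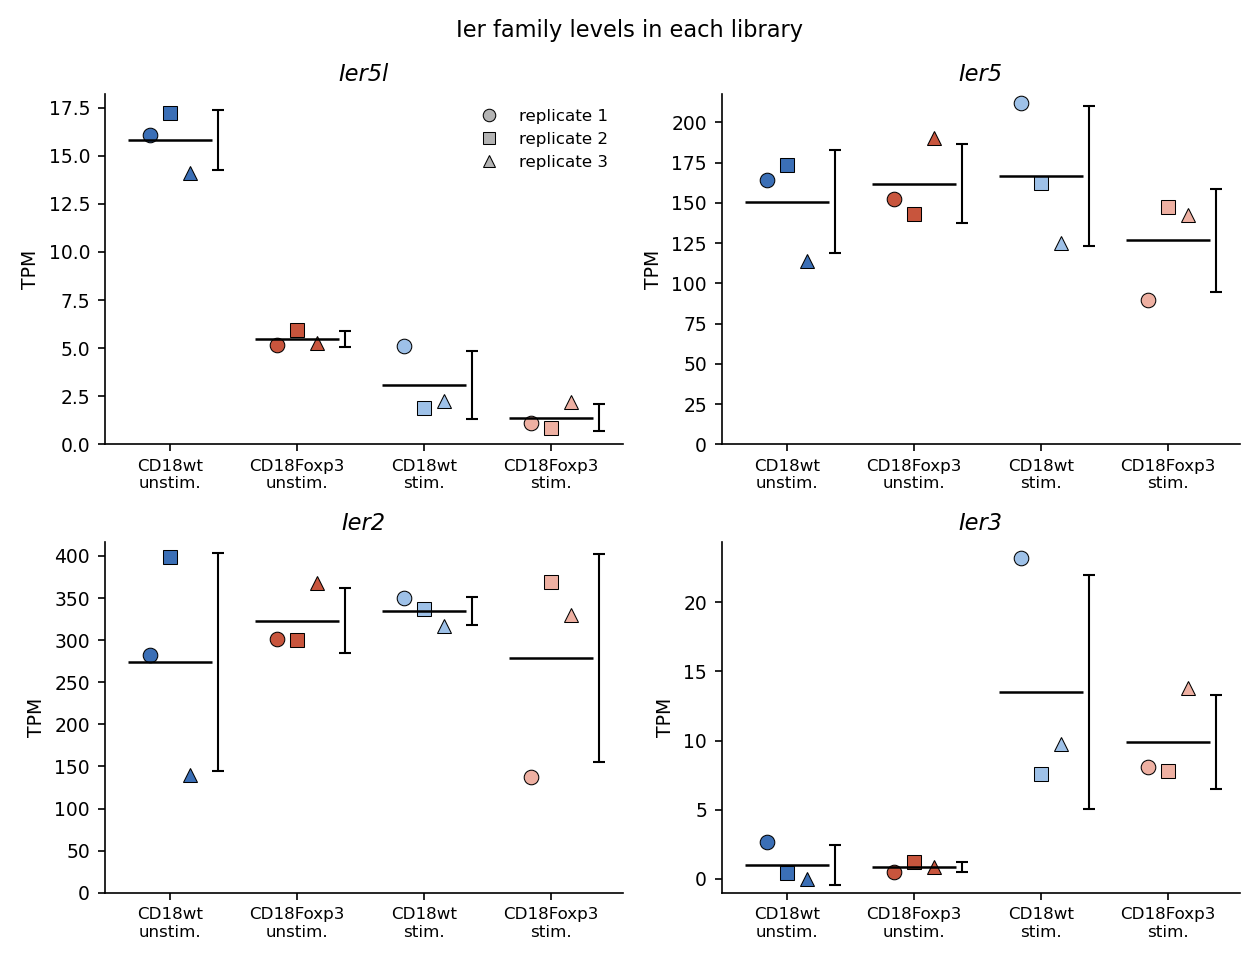
Level of each Ier gene in TPM on the y axis in the 12 libraries, by group on the x axis. Symbols are replicates, long lines are means and bars at the side are ± SD (n = 3), and the Ier3 axis begins below 0 only to show values at 0. The Ier5l libraries lie highest in unstimulated CD18wt Treg, at 14.1 to 17.3 TPM, and the highest unstimulated Ier3 library, at 2.65 TPM, lies below every stimulated one.

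Ier5l had its highest level in unstimulated CD18wt Treg, with 16.1, 17.3 and 14.1 TPM from 274, 312 and 154 reads. The unstimulated CD18Foxp3 libraries held 5.17, 5.95 and 5.27 TPM from 99, 92 and 88 reads. After stimulation the CD18wt libraries held 5.13, 1.88 and 2.24 TPM and the CD18Foxp3 libraries 1.12, 0.872 and 2.18 TPM, from 13 to 53 reads each. The unstimulated CD18wt group overlapped with no other group, and the unstimulated CD18Foxp3 group lay just above the highest stimulated library. The 2 stimulated groups overlapped.

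The stimulation comparisons ask how the family responded to anti-CD3 and anti-CD28 in each genotype. Ier5l fell and Ier3 rose in both. Ier5l fell by 2.80 on the log2 scale in CD18wt Treg (SE 0.34, 95% interval -3.53 to -2.06, edgeR quasi-likelihood adjusted p = 2.24e-05), a level 6.95-fold lower. In CD18Foxp3 Treg it fell by 2.34 (SE 0.38, interval -3.20 to -1.49, edgeR adjusted p = 0.000677), which was 5.07-fold lower. The threshold was a 1.5-fold change together with an adjusted p no higher than 0.01. As background, 14.9% of the 11930 genes tested in CD18wt and 17.6% of the 12019 in CD18Foxp3 Treg passed it in the lower direction, and 18.7% and 20.9% in the higher direction. Without the CD18wt unstimulated replicate 3 the fall of Ier5l in CD18wt Treg was 2.84 (SE 0.37, edgeR adjusted p = 7.29e-05). The unstimulated libraries from which Ier5l was chosen also enter these comparisons, so the size of its fall in either genotype is not independent of the choice. In bulk RNA, fewer cells that express a gene and less RNA per cell cannot be told apart.

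Ier3 moved the other way. Unstimulated CD18wt libraries held 2.65, 0.394 and 0 TPM from 19, 3 and 0 reads, the last of which allows up to 0.653 TPM (3 reads, counting error only). Unstimulated CD18Foxp3 libraries held 0.496, 1.23 and 0.853 TPM from 4, 8 and 6 reads. Stimulated CD18wt libraries held 23.2, 7.55 and 9.78 TPM and stimulated CD18Foxp3 libraries 8.10, 7.80 and 13.8 TPM, from 49 to 101 reads. Every stimulated library lay above every unstimulated one. The log2 fold change was 3.22 in CD18wt Treg (SE 0.87, interval 1.32 to 5.12, edgeR adjusted p = 0.00932) and 3.16 in CD18Foxp3 Treg (SE 0.48, interval 2.07 to 4.25, edgeR adjusted p = 0.000484). In CD18wt Treg this call was close to the threshold. Without the unstimulated replicate 3 the change there was 2.76 with an edgeR adjusted p of 0.015, and it also missed the threshold without unstimulated replicate 2 (2.79, adjusted p = 0.0405) or stimulated replicate 1 (2.62, adjusted p = 0.0489), 2 (3.45, adjusted p = 0.0147) or 3 (3.41, adjusted p = 0.0149). Without the unstimulated replicate 1, which held 19 of the 22 unstimulated reads, the change was 5.32 and passed (adjusted p = 0.000673).

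The promoters of these 2 genes, which changed in opposite directions, are shown as the RefSeq sequence (GRCm38.p6) that precedes the annotated exon, read in the direction of transcription. Capitals mark CCAAT boxes (CCAAT, or ATTGG on the other strand) and GC boxes (GGGCGG, both strands).
Ier5l, chr2:30474220-30474449, minus strand: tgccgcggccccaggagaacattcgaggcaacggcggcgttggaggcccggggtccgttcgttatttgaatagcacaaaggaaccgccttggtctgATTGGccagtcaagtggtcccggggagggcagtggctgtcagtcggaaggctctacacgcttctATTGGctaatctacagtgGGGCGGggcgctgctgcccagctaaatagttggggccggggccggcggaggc
Ier3, chr17:35821463-35821683, plus strand: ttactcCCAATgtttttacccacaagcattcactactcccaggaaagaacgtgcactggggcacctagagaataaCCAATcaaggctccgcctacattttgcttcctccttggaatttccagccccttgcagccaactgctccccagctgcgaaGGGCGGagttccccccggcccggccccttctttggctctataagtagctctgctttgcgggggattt
Both hold 2 CCAAT boxes, at -154 and -90 bases from the RefSeq start site in Ier5l and at -244 and -175 in Ier3, and both hold 1 GC box. Of 32851 promoters of 250 bases, 33.9% held at least 1 CCAAT box and 32.7% a GC box. The Ier3 promoter also held a match to the kappaB site, which begins at -92 and overlaps its GC box, and 7.25% of promoters held one. No match to TATAAA, to the AP-1 site (TGACTCA or its G-centred form) or to the CArG box bound by SRF was present in either window. The table held a promoter for Ier5, which also had 2 CCAAT boxes, and none for Ier2.

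Ier5 and Ier2 stayed abundant. Ier5 libraries held 164, 174 and 114 TPM in unstimulated CD18wt, 153, 143 and 190 in unstimulated CD18Foxp3, 212, 163 and 125 in stimulated CD18wt and 89.7, 148 and 143 in stimulated CD18Foxp3 Treg. All 4 groups overlapped with their neighbours in the order of the means. In CD18wt Treg the log2 fold change was -0.25 (SE 0.20, interval -0.67 to 0.18, edgeR adjusted p = 0.326). In CD18Foxp3 Treg Ier5 passed the threshold and fell by 0.72 (SE 0.18, interval -1.13 to -0.31, edgeR adjusted p = 0.00758), although the libraries overlapped in TPM. Without the stimulated CD18Foxp3 replicate 1, the lowest library, this fall was 0.55 and below the fold of 1.5. It also missed the adjusted p of 0.01 without unstimulated replicate 1 (-0.76, adjusted p = 0.0216), 2 (-0.80, adjusted p = 0.015) or 3 (-0.62, adjusted p = 0.0356) or stimulated replicate 2 (-0.83, adjusted p = 0.0105).

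Ier2 libraries held 283, 399 and 140 TPM in unstimulated CD18wt, 301, 301 and 368 in unstimulated CD18Foxp3, 350, 337 and 317 in stimulated CD18wt and 138, 369 and 330 in stimulated CD18Foxp3 Treg. A single low library set the spread in 2 groups, replicate 3 of unstimulated CD18wt and replicate 1 of stimulated CD18Foxp3 Treg. The log2 fold change on stimulation was -0.09 in CD18wt (SE 0.31, interval -0.81 to 0.63, edgeR adjusted p = 0.831) and -0.59 in CD18Foxp3 Treg (SE 0.29, interval -1.24 to 0.07, edgeR adjusted p = 0.112). Without the stimulated CD18Foxp3 replicate 1 the CD18Foxp3 value was -0.29 (adjusted p = 0.0132). The CD18wt values without unstimulated replicate 3 were -0.38 for Ier2 and -0.38 for Ier5. The mean of the other 2 unstimulated CD18wt libraries was 341 TPM for Ier2 and 169 TPM for Ier5.

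The fits scale libraries so that most genes stay level. On the TPM scale as deposited the median of all tested genes rose on stimulation by 0.36 in CD18wt and 0.31 in CD18Foxp3 Treg (limma, log2(TPM + 1)), against 0.02 and 0.01 in the edgeR fits. Of the genes past the threshold, 80.7% and 75.9% were then higher, against 55.7% and 54.3%. Ier5l stayed lower and Ier3 higher on both scales, whereas in CD18wt Treg the direction of Ier5 and Ier2 turned on the TPM scale (0.13 and 0.41), and the fall of Ier5 in CD18Foxp3 Treg was 0.38 with a limma adjusted p of 0.153. Of the 4 members, 2 did not overlap between the conditions in TPM in either genotype, where 62% and 67.1% of all tested genes did not. Exact permutation tests of log2(TPM + 1), two-sided, cannot go below p = 0.1 with 3 against 3 libraries. By exact permutation Ier5l and Ier3 reached p = 0.1 in both genotypes (adjusted p = 0.3 over the 12 tests made), and no other member did.

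**Figure D3:**
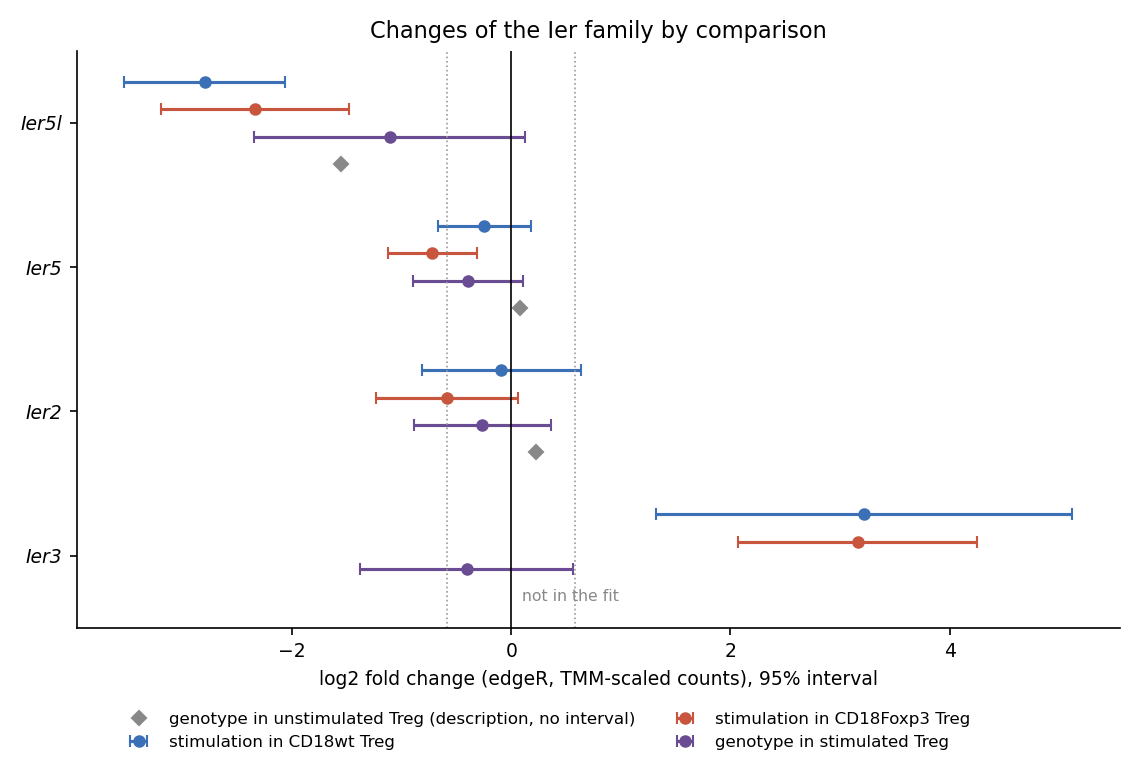
Log2 fold change (x axis, edgeR) of each Ier gene by comparison, with 95% intervals. Grey diamonds are the comparison from which Ier5l was chosen and have no interval, dotted lines mark a fold of 1.5, and Ier3 had too few reads for that fit. Ier5l lies below 0 and Ier3 above 0 in both stimulation comparisons, while every interval for genotype in stimulated Treg includes 0.

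The genotype comparison in unstimulated Treg chose Ier5l and is a description. Ier5l was lower in CD18Foxp3 Treg by a log2 difference of -1.56 (SE 0.17), 2.95-fold, with no overlap of the libraries. Past the threshold were 0.135% of the 11829 genes tested, and 15.6% did not overlap in TPM. No gene passed in this comparison when all 12 libraries entered 1 fit. Without the CD18wt unstimulated replicate 3 the Ier5l difference was -1.60 (SE 0.19). Ier5 differed by 0.08 (SE 0.14) and Ier2 by 0.22 (SE 0.37), and both overlapped. Without the replicate 3 these differences were -0.05 and -0.07. Ier3 had 22 reads in all in unstimulated CD18wt and 18 in CD18Foxp3 Treg, too few to enter that fit.

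The stimulated libraries were not used in the choice and give another reading of the genotype difference. They may come from the same mice as the unstimulated libraries, so this reading is not known to be independent. Ier5l was again lower on average in CD18Foxp3 Treg, by a log2 difference of -1.11 (SE 0.57), but the interval ran from -2.35 to 0.13, the edgeR adjusted p was 0.998 and the libraries overlapped. This difference was -0.56 without the stimulated CD18wt replicate 1 and -1.59 without the stimulated CD18Foxp3 replicate 3, and stayed short of the threshold in each fit that left out 1 library. The other members also had lower means in stimulated CD18Foxp3 Treg, and none passed the threshold. The differences were -0.39 for Ier5 (interval -0.89 to 0.11), -0.27 for Ier2 (-0.89 to 0.36) and -0.41 for Ier3 (-1.38 to 0.57). Of all 11930 genes tested, 0% passed the threshold in this comparison, with 583 at an unadjusted p under 0.05, while DESeq2 called 22 and the edgeR likelihood ratio test 16, and 9.43% of genes did not overlap in TPM. A difference of the size seen in unstimulated Treg lay inside the interval of Ier5l. Without the stimulated CD18Foxp3 replicate 1, the difference of Ier2 was 0.05.

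The interaction asks whether stimulation acted differently in the 2 genotypes. For Ier5l, chosen on part of these libraries, the difference between its responses is a description of 0.45 on the log2 scale (SE 0.52). It depended on single libraries, and was 0.97 without the stimulated CD18wt replicate 1 and -0.02 without the stimulated CD18Foxp3 replicate 3. Ier5 differed by -0.48 (interval -1.11 to 0.15, edgeR adjusted p = 0.987), Ier2 by -0.50 (-1.62 to 0.63, adjusted p = 0.987) and Ier3 by -0.07 (-2.61 to 2.47, adjusted p = 1). Of the 12636 genes tested, 0% passed, with 485 at an unadjusted p under 0.05, while DESeq2 called 1 and the likelihood ratio test 6. The threshold was thus passed by Ier5 in CD18Foxp3 Treg and not in CD18wt Treg without the responses being shown to differ.

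Among the members, Ier2 and Ier5 varied together. Over the 12 libraries their log2 CPM (read counts scaled to library size) correlated at r = 0.80, and at r = 0.79 after the group means were subtracted. Ier5l correlated with Ier5 at 0.68, with Ier2 at 0.30 and with Ier3 at -0.72, the last of which became 0.48 once the group means were removed. Without the CD18wt unstimulated replicate 3 the values for Ier5l were 0.78, 0.60 and -0.66, and that of Ier2 with Ier5 was 0.87. Of the early transcription factors, Junb (an AP-1 subunit) had the highest r with Ier2, at 0.81 over all libraries and 0.89 within groups. For Ier5 it was Jund, another AP-1 subunit, at 0.88 and 0.81. Without the CD18wt unstimulated replicate 3 the values over the remaining libraries were 0.79 and 0.88. Within-group values were not computed without it. The 2 libraries with the lowest Junb, at 311 TPM in unstimulated CD18wt replicate 3 and 239 TPM in stimulated CD18Foxp3 replicate 1, were also the 2 lowest for Ier2 and for Ier5. Ier5l was also lowest of its group in that unstimulated library, with 14.1 TPM against 16.1 and 17.3. These correlations share the libraries and their depth.

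**Figure D4:**
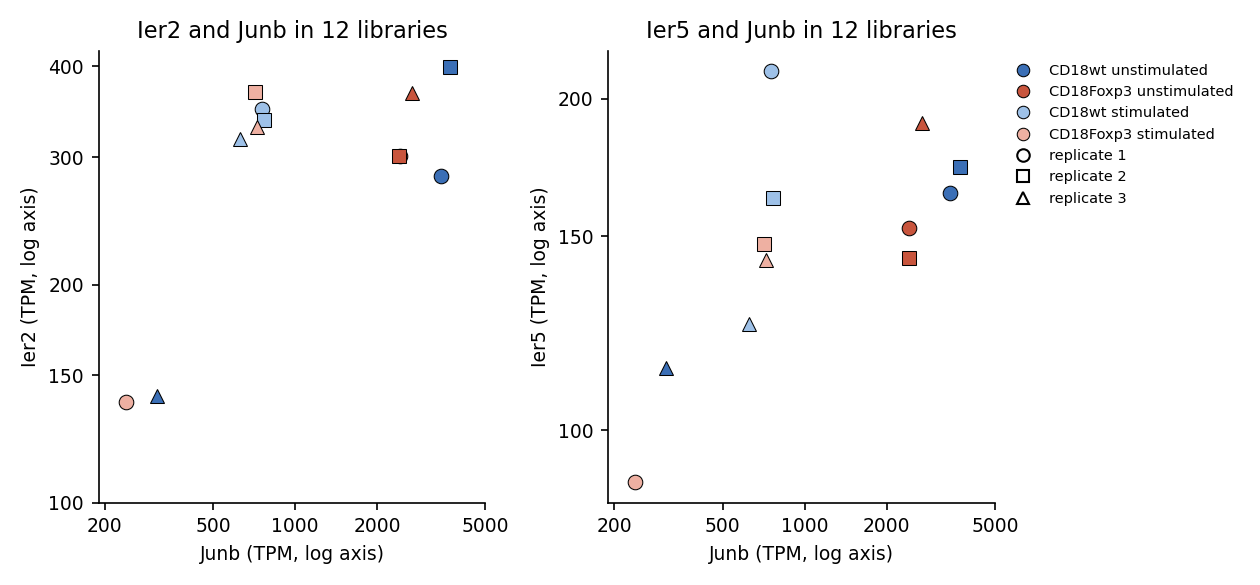
Level of Ier2 and of Ier5 (y axes, TPM, log scale) against Junb (x axis, TPM, log scale), with 1 point per library, colours for groups and symbols for replicates. The 2 libraries at 239 and 311 TPM of Junb are the lowest of the 12 for both Ier genes.

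The 10 genes most like Ier5l over the 12 libraries were Ctsl (r = 0.97), Cxxc5 (0.96), Gng2, Dbp, Gm31814, Lrch1, Spock2, Fbxo38, Glyctk and H2-Q2 (0.95), by Pearson correlation of log2 CPM. Cxxc5, a CXXC zinc finger gene, held 15.7 TPM in unstimulated CD18wt, 7.29 in unstimulated CD18Foxp3, 4.86 in stimulated CD18wt and 2.14 in stimulated CD18Foxp3 Treg. For H2-Q2 the levels were 16.5, 8.70, 3.80 and 2.06 TPM in that order. Ctsl, which encodes the protease cathepsin L, went from 4.18 to 2.56, 2.92 and 2.01 TPM in the same order. Dbp, a clock-controlled transcription factor, held 24.3, 16.7, 8.27 and 6.13 TPM. Of these 10 genes, 5 were also among the 10 most like Ier5l without the CD18wt unstimulated replicate 3. Such r values over 4 groups mostly reflect the group means and do not measure the size of a change. On stimulation Fbxo38 had log2 values of -0.29 and -0.28 and Ctsl of -0.93 and -0.71 in CD18wt and CD18Foxp3 Treg, and neither passed. Cxxc5, Gng2, Dbp, Spock2, Glyctk and H2-Q2 passed as lower in both genotypes. Lrch1 passed in CD18wt Treg alone, as did Gm31814, which was not tested in CD18Foxp3 Treg.

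After subtraction of the group means, the 10 nearest genes were Gm21985 (r = 0.96), Fry (0.95), Susd3 (0.95), Pcbp3, Ak1, Smpdl3b, St3gal1, Osgin1, Cd79b (0.89) and Zhx3 (0.89). Cd79b encodes a chain of the B cell receptor complex. The summed level of 10 B cell markers was 36.3 to 41.1 TPM in unstimulated CD18wt, 28.6 to 36.4 in unstimulated CD18Foxp3, 11.04 to 21.9 in stimulated CD18wt and 9.75 to 13.7 in stimulated CD18Foxp3 Treg. Between 7 and 8 of these 10 markers had a read in each group, and Cd79b supplied most of the sum. In each of the 4 groups the library with the highest sum was also the one with the highest Ier5l. Cd79b was named for its likeness to Ier5l within groups, so this match partly follows from that choice and is not independent evidence. The sums of the unstimulated genotypes overlapped only narrowly, with 36.34 TPM in the lowest CD18wt and 36.38 TPM in the highest CD18Foxp3 library. Ier5l did not overlap. Mean Cd79b was 26.4 and 26.2 TPM in these groups. Pax5 (0.4525 to 0.5563 against 0.01816 to 0.2744 TPM) and Bank1 (1.495 to 2.467 against 0.9503 to 1.198 TPM) were lower in CD18Foxp3 Treg without overlap. The other B cell markers with reads overlapped. The part of these transcripts in the Ier5l result was not tested.

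The pathway of the family was followed through lists of genes. Of all tested genes 18.7% rose and 14.9% fell past the threshold in CD18wt Treg, and 20.9% and 17.6% in CD18Foxp3 Treg. List counts were not tested against these shares. Early transcription factors split on stimulation. In CD18Foxp3 Treg 8 of 15 rose and 5 fell, with a median log2 change of 0.70 against 0.01 for all tested genes. Those that rose included Fosl1 (6.17) and Atf3 (5.70), and those that fell included Fosb (-6.23) and Fos (-6.17). In CD18wt Treg 7 of 15 rose and 0 fell, with a median of 1.07 against 0.02. Fosl1 (5.50), Atf3 (4.18), Nr4a3 (2.88) and Fosl2 rose most, and Fos had a value of -6.96 with an edgeR adjusted p of 0.0355. Without the CD18wt unstimulated replicate 3, 8 rose and 4 fell, namely Fos, Fosb, Jun and Junb, an alternative added after the data were seen. On the deposited TPM scale (limma, also added after the data were seen) the counts were 7 and 0 in CD18wt and 8 and 5 in CD18Foxp3 Treg. When each CD18wt library was left out in turn, between 5 and 8 rose. Atf3 missed the threshold without stimulated replicate 1, 2 or 3 or unstimulated replicate 1.

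Of the subunits of PP2A, the phosphatase whose B55 subunits bind IER proteins, some passed the threshold in each direction on the edgeR scale. In CD18wt Treg 2 of 11 tested subunits rose and 2 fell (median 0.17), and in CD18Foxp3 Treg 1 rose and 2 fell (median 0.18). These counts lie near the shares over all tested genes and are not a result about the list. The scaffold subunit Ppp2r1b rose by 1.14 and 1.24, while the regulatory subunits Ppp2r5a (-0.79 and -0.90) and Ppp2r5c (-0.72 and -0.69) fell in both, and the catalytic subunit Ppp2cb rose by 0.64 in CD18wt Treg, a call lost without stimulated replicate 1 or 2 or unstimulated replicate 1. The B55 subunits that bind IER proteins did not pass the threshold. Ppp2r2a had log2 values of 0.41 and 0.51 and Ppp2r2d of 0.17 and 0.18. On the TPM scale 4 of 11 were higher in CD18wt and 5 in CD18Foxp3 Treg, Ppp2r2a among them, with 0 lower in both. The falls of Ppp2r5a and Ppp2r5c did not pass there. Over all tested genes, 4447 of 11930 passed on that scale in CD18wt Treg, 80.7% of them higher. In CD18Foxp3 Treg 4984 of 12019 passed, 75.9% of them higher.

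Of the HSF1 list 6 of 14 tested genes rose in CD18wt and 7 in CD18Foxp3 Treg, with 0 lower in both and medians of 0.43 and 0.78. On the TPM scale 7 and 8 rose, 0 fell, and the medians were 0.83 and 1.08. The mitochondrial chaperone Hspd1 rose most (2.27 and 2.69), followed by Hsf2 (1.45) in CD18wt and the cytosolic chaperone Hsp90aa1 (2.03) in CD18Foxp3 Treg. Hsf1 itself, which is regulated as a protein, had values of 0.34 and 0.06 and did not pass. The inducible chaperones Hspa1a and Hspa1b, classic targets of HSF1, had values of -3.15 and -2.45 in CD18wt Treg and did not pass either (edgeR adjusted p = 0.155 and 0.129). Both passed as lower without the CD18wt unstimulated replicate 2, where Hspa1a lay below the 43.5 and 25.6 TPM of the other 2, and the list then held 5 higher and 2 lower.

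In the NF-kappaB list 4 of 12 genes rose and 0 fell in CD18wt Treg (median 0.06), and 4 rose and 2 fell in CD18Foxp3 Treg (median -0.19). The subunit Rel rose by 1.65 and 1.98, and the inhibitor gene Nfkbid by 1.42 and 1.23, while the ubiquitin-editing regulator Tnfaip3 fell by 2.67 in CD18Foxp3 Treg. Of the genes that passed in CD18Foxp3 Treg, the inhibitor genes Nfkbib and Nfkbie each missed the threshold in several fits that left out 1 library. On the TPM scale 5 rose in each genotype, 0 and 1 fell, and the medians were 0.45 and 0.17. Without the CD18wt unstimulated replicate 3, 2 also fell in CD18wt Treg, Tnfaip3 and Birc3. Of the ERK list 3 of 10 tested genes rose in each genotype (medians 0.33 and 0.12), namely the phosphatase genes Dusp4 (2.21 and 2.45) and Dusp5 (1.18 and 0.98) and the inhibitor Spred1 (1.46 and 2.19). Dusp5 missed the threshold in CD18wt Treg without stimulated replicate 1, 2 or 3. On the TPM scale 3 rose and 0 fell in CD18wt and 4 rose and 1 fell in CD18Foxp3 Treg, with medians of 0.82 and 0.47. Dusp1, an early gene itself, fell by 4.40 in CD18Foxp3 Treg, and without the CD18wt unstimulated replicate 3 it also fell in CD18wt Treg. The kinase gene Mapk3 (-0.36 and -0.28) did not pass the threshold.

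Among SRF and its cofactors Mkl1 fell in both genotypes (-0.96 and -1.07), though on the TPM scale it passed in CD18Foxp3 Treg alone. Srf rose by 0.66 in CD18wt Treg, a call lost without the stimulated replicate 2, and had a value of 0.24 in CD18Foxp3 Treg, with medians of -0.11 and -0.24 over the 6 genes that turned to 0.27 and 0.11 on the TPM scale. The follicular T cell genes moved in the direction of Ier5l. In CD18wt Treg 10 of 14 fell and 1 rose (median -1.81), and in CD18Foxp3 Treg 8 fell and 1 rose (median -1.53). On the TPM scale these counts were 9 and 2 in CD18wt and 7 and 2 in CD18Foxp3 Treg. Sostdc1 (-4.14 in CD18wt Treg), Tox2 (-3.43 and -3.10) and Ascl2 (-3.43 and -4.96) fell most, and the costimulatory receptor Icos rose (0.63 and 1.47). In CD18wt Treg the Icos call was lost without stimulated replicate 1 or unstimulated replicate 1 or 2. In CD18Foxp3 Treg between 6 and 9 fell when each library was left out, and Il21 missed the threshold without any 1 of the 3 unstimulated libraries. In unstimulated Treg Il21, Pou2af1 and Tox2 were the 3 of 14 past the threshold between the genotypes, all lower in CD18Foxp3 Treg as Ier5l was. Over all 11829 genes tested there, 0.135% passed. These calls were fragile, since no gene passed in the fit of all 12 libraries. The same held without the unstimulated CD18wt replicate 2 or the unstimulated CD18Foxp3 replicate 1 or 2. The follicular list was chosen with these genotype values known and is not independent evidence. None of the genes in the 7 lists passed the threshold between the genotypes in stimulated Treg or in the interaction.

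**Figure D5:**
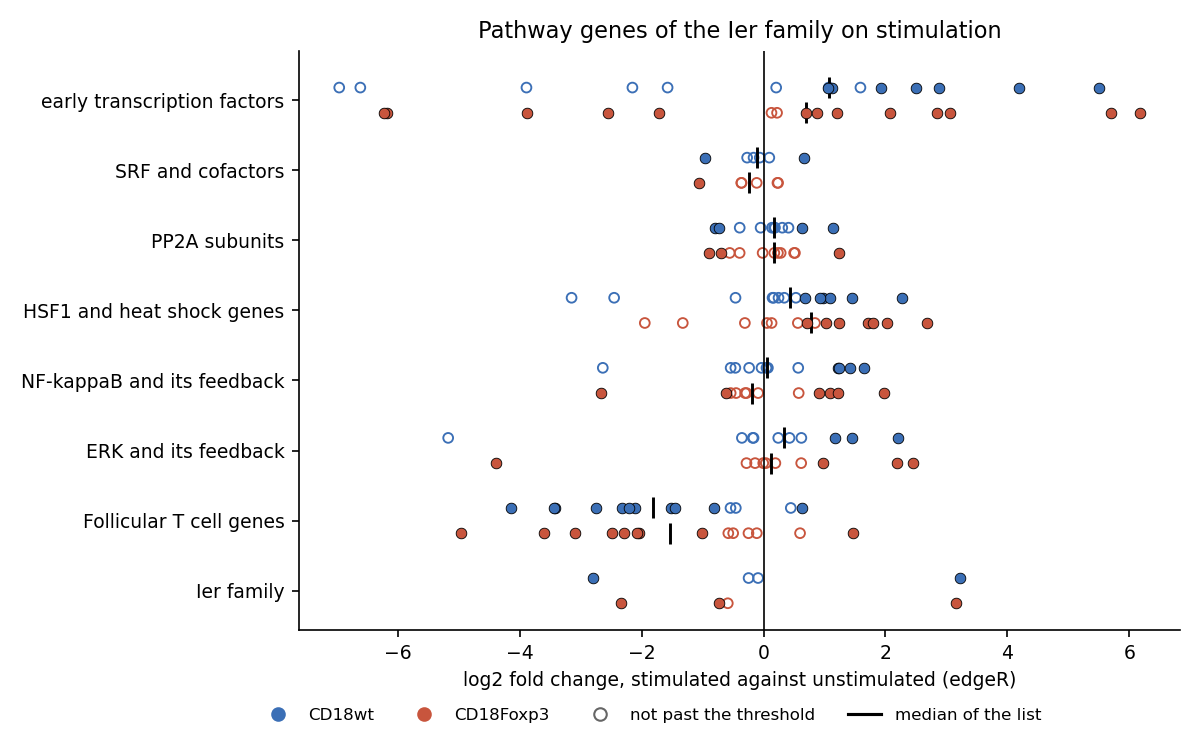
Log2 fold change on stimulation (x axis, edgeR) of every tested gene in the 7 lists and of the 4 Ier genes (rows), in CD18wt (blue) and CD18Foxp3 (red) Treg. Filled points passed the threshold, open points did not, and black ticks are list medians. The early transcription factors reach from -6.96 to 6.17, while most follicular genes lie on the side of Ier5l.

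Of the 3 kept genes on each side of Ier5l on chromosome 2, none that was tested fell past the threshold on stimulation. Cstad had too few reads for those fits, with means of 1.56 and 1.12 TPM in unstimulated CD18wt and CD18Foxp3 and 0.210 and 0.293 TPM in stimulated Treg. Ptpa, which encodes an activator of PP2A, lies 23.7 kb away on the plus strand and averaged 65.6 and 71.3 TPM in unstimulated CD18wt and CD18Foxp3 and 115 and 104 TPM in stimulated Treg. Its log2 change on stimulation was 0.41 in CD18wt and 0.18 in CD18Foxp3 Treg and did not pass the threshold. Crat and Dolpp1 beyond it, Cstad, the nearest kept gene on the other side at 121 kb, and 1700001O22Rik did not pass it in any comparison in which they were tested. Ntmt1, 334 kb away, rose in both genotypes on stimulation (1.33 and 1.09). None of these neighbours passed the threshold between the genotypes.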

How the data were processed

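The authors sorted RFP+CD4+ splenic T cells, built poly(A) libraries with 15 PCR cycles from a kit not stated to keep strand, sequenced single reads of 59 bases and ran CLC Genomics Workbench 20.0 at default settings against GRCm38. The deposited tables give whole exon read counts per gene and, derived from them, the TPM and RPKM of the authors (other units, not used for count tests). Depth was 10665174 to 19005482 exon reads per library, and intervals on low counts cover counting error only. Counts were tested with edgeR 4.0.16 in R 4.3.3 (TMM, filterByExpr with a minimum count of 10, robust quasi-likelihood test, Benjamini-Hochberg over all genes), using the libraries of the groups compared, or all 12 for the interaction. Calls needed a 1.5-fold change and an adjusted p no higher than 0.01. Alternatives used DESeq2 1.42.0, limma 3.58.1 on log2(TPM + 1) or log2(TPM + 0.1), other filters and scalings, a replicate block, RPKM in place of TPM and each library left out. TPM levels of single genes were compared by exact permutation (scipy 1.17.1). The code was tested on simulated data.

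Genes named were the members, Itgb2, the 10 genes most like Ier5l with and without group means, its 3 nearest kept genes on each side, up to 4 list genes of largest change past the threshold in each stimulation comparison, and Hsf1, Ppp2r2a, Ppp2r2d, Mapk3 and Srf. A gene that this rule also names is not reported here. Hspa1a, Hspa1b, Dusp1, Junb, Jund, Jun, Birc3 and some other list genes were named after their values were seen. The members and lists were chosen with earlier results of these data known. Sequences came from GENCODE M21 and RefSeq (GRCm38.p6). A promoter was looked up for each member and found for 3 of the 4.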

Additional observations from a re-analysis of the deposited data

How the results depend on the processing

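Ier5l passed the threshold in both stimulation comparisons under every alternative fit across all genes (-3.33 to -2.12 in CD18wt and -2.81 to -1.47 in CD18Foxp3 Treg), and Ier3 did so in CD18Foxp3 Treg (2.53 to 3.50, where it could be fitted). On the deposited RPKM scale the Ier5l differences were -1.80 and -1.04, with an exact permutation p of 0.1 in both, the smallest that 3 against 3 libraries allow. The number of members past the threshold in CD18wt Treg was 2, and it was 1 under upper-quartile normalization (Ier3 3.14, adjusted p = 0.0106), under limma on log2(TPM + 0.1) (Ier3 4.55, adjusted p = 0.019) and with at least 10 counts in every library, which removes Ier3 by construction. It was 1 to 2 when each library was left out. In CD18Foxp3 Treg it was 3, and 2 to 3 under the alternatives. In CD18wt Treg the sign of Ier5 turned under limma on log2(TPM + 1) (0.13) and log2(TPM + 0.1) (0.13), and on the deposited RPKM scale the value was -0.082 against 0.13 in TPM. Ier2 turned under both limma fits (0.41 and 0.41) and ranged from -0.38 to 0.26 when each library was left out. When each library was left out, the genotype difference in stimulated Treg ranged from -1.59 to -0.56 for Ier5l, from -0.493 to 0.0513 for Ier2 and from -0.73 to 0.20 for Ier3, and the interaction of Ier3 from -2.17 to 0.53. The Ier5l difference between unstimulated genotypes was -1.38 under limma on log2(TPM + 1), and -1.64 to -1.51 when each library was left out. The causes of these shifts were not tested.

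Replicate numbers were not taken to pair libraries, since nothing states which cultures came from 1 mouse. Same-numbered deviations correlated at -0.095 to 0.096 between the CD18wt cultures, and differently numbered ones at -0.117 to 0.11. Between the CD18Foxp3 cultures the values were 0.07 to 0.147 for the same number and -0.124 to -0.021 for different numbers. Pairing is therefore not settled by these values. With a replicate block Ier2 in CD18wt Treg was 0.008 (adjusted p = 0.978), and the numbers of members past the threshold stayed at 2 in CD18wt and 3 in CD18Foxp3 Treg, while calls over all genes between unstimulated genotypes went from 16 to 41. Other counts over all genes that moved in that comparison were those of DESeq2 and the likelihood ratio test (86 each) and 134 with no filter. The limma fits gave 1 and 5, and the fit of all 12 libraries together gave 0. Without the CD18wt unstimulated replicate 3 the count was 44, and without any other single library it was 0 to 2. Unstimulated Ier3 rests on 0 to 19 reads per library and stimulated Ier5l on 13 to 53.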

Other observations

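The intron and junction reads of Ier3, the only member with an intron, added little. Unstimulated CD18wt and CD18Foxp3 libraries held 2 and 4 exon junction reads in all, and stimulated libraries 23 and 9. Reads over its intron of 109 bases were found in 2 libraries, stimulated CD18Foxp3 replicates 1 and 3, with 3 reads each.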
